A study of Homo sapiens with 16 samples.

Results

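The 10 genes described here encode proteases of the lysosome and a protein that blocks them: the aspartic protease cathepsin D (Ctsd), the cysteine cathepsins B, C, H, K, L, S and Z (Ctsb, Ctsc, Ctsh, Ctsk, Ctsl, Ctss and Ctsz), legumain (Lgmn) and the secreted inhibitor cystatin C (Cst3). They were chosen by name, as 9 proteases and 1 inhibitor among the 32285 genes in the count tables, and all 10 were measured. For each gene the unique molecular identifiers (UMIs, which count captured RNA molecules) were summed over the cells that share a deposited cell label within an experiment, and are given as counts per 1000000 UMIs of those cells (CPM).

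The tumors were 2 mouse mammary tumor models, LPA1-T22 (T22, sensitive to the PARP inhibitor olaparib) and LPA1-T127 (T127, resistant), grown in female FVB mice that were 6 weeks old at purchase. Chunks of 25 mm3 were placed in the mammary fat pad, and vehicle or olaparib at 50 mg/kg was given by mouth each day. The general protocol in the labels has mice assigned to treatment 14 days after transplantation for T22 and 10 days after it for T127, which may not hold for every experiment. In mice carrying both models T22 was placed 14 days before T127. The long-term experiment held 8 pools of T22 and T127 tumors after 20 days, from mice carrying a single tumor model or both models on opposite sides. The short-term experiments held 4 pools of T22 tumors and 4 pools of T127 tumors after 4 and 8 days, so every pool mixed vehicle and olaparib tumors, and the long-term pools also mixed the models.

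No file used here ties a cell to its tumor, mouse or treatment. Each experiment is therefore 1 sample without a replicate check, the pools mix tumors in a makeup the labels do not give and are not replicates, and no test of any difference was possible. Intervals are exact 95% intervals that cover counting error only, and the range over pools shows how far a value moves between them. A member was counted as higher or lower in a comparison when it differed at least 2-fold in CPM and in the same direction in every pool, or, between experiments, with pool ranges that did not overlap. The percentage of all tested genes that met the same rule is printed beside each count.

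After copies of shared barcodes were left out, 48824 of 53946 cells remained, 25723 of them in the long-term experiment. In 3 pairs of long-term pools 987 to 3939 barcodes were shared, against at most 8 in the other 25 pairs, and the deepest copy of each was kept. Long-term pools 1 to 4 stood apart from pools 5 to 8, a split seen in the data and not named in the labels. Between these sets the pool ranges did not overlap for 36.9% of tested genes in Malign_0 (with Ctsb, Ctsl, Lgmn and Cst3). The share was 33.8% in Macro-M2 (with Ctsb, Ctsc, Ctss, Ctsz, Lgmn and Cst3). These were the highest shares among the labels compared, and the lowest was 5.19% in Endo.cells. In Malign_3 it was 17.3%, without any member. The part of the split in the long-term values was not tested. A member is counted within the long-term experiment only with the same direction in every pool compared. Its direction therefore holds in both sets by that rule and says nothing further about the split. Pools held 34755906 to 55600377 UMIs as deposited, and at least 32298013 after the copies were left out. The macrophage labels carried the macrophage gene C1qa at 6529 to 10099 CPM in the long-term pools. The label CD14-IL1B had less C1qa (2334 CPM) together with the dendritic cell gene Xcr1 (186 CPM), and the label pDC carried the plasmacytoid dendritic cell gene Siglech (878 CPM). The label my_CAF held the highest level of each of 3 pericyte markers, with Rgs5 at 4203 CPM and the fibroblast gene Dcn at 124 CPM, whereas i_CAF had Dcn at 6544 CPM. Because the labels were made from these same cells, differences between labels are given as descriptions.

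Cathepsins are made as inactive precursors, mature at low pH in endosomes and lysosomes, and degrade proteins taken up by the cell. Some are also secreted and cut extracellular matrix, and in tumors macrophages are a well known source of them. Cathepsin S trims the invariant chain (Cd74) so that MHC class II molecules can bind peptides, cathepsin K degrades collagen in osteoclasts, legumain cuts after asparagine and helps to mature other cathepsins, and cystatin C binds papain-like cathepsins outside cells and in the secretory pathway.

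Most of the 10 genes were highest in labels counted here as monocyte or macrophage. In the long-term pools 6 of 10 members peaked there (Ctsb, Ctsc, Ctss, Ctsz, Lgmn and Cst3), as did 12.5% of the genes at 10 CPM or more in a label. Cst3 is counted through CD14-IL1B, which had less C1qa and carried Xcr1, and Macro-others came next. Ctsh and Ctsl peaked in pDC, Ctsk in i_CAF and Ctsd in the malignant label Malign_2. The 9 proteases together made up 17886 CPM in Macro-M1, 16918 CPM in Macro-others and 16079.5 CPM in Macro-M2, against 1329 to 3627 CPM in the 4 malignant labels and 824 CPM in CD8_Tn-CCR7, the lowest. Among the 21 labels with at least 50 cells, 179 of 200 neighbouring pairs in the order of levels had overlapping pool ranges, so neighbours in the order did not usually differ beyond the spread between pools.

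**Figure D1:**
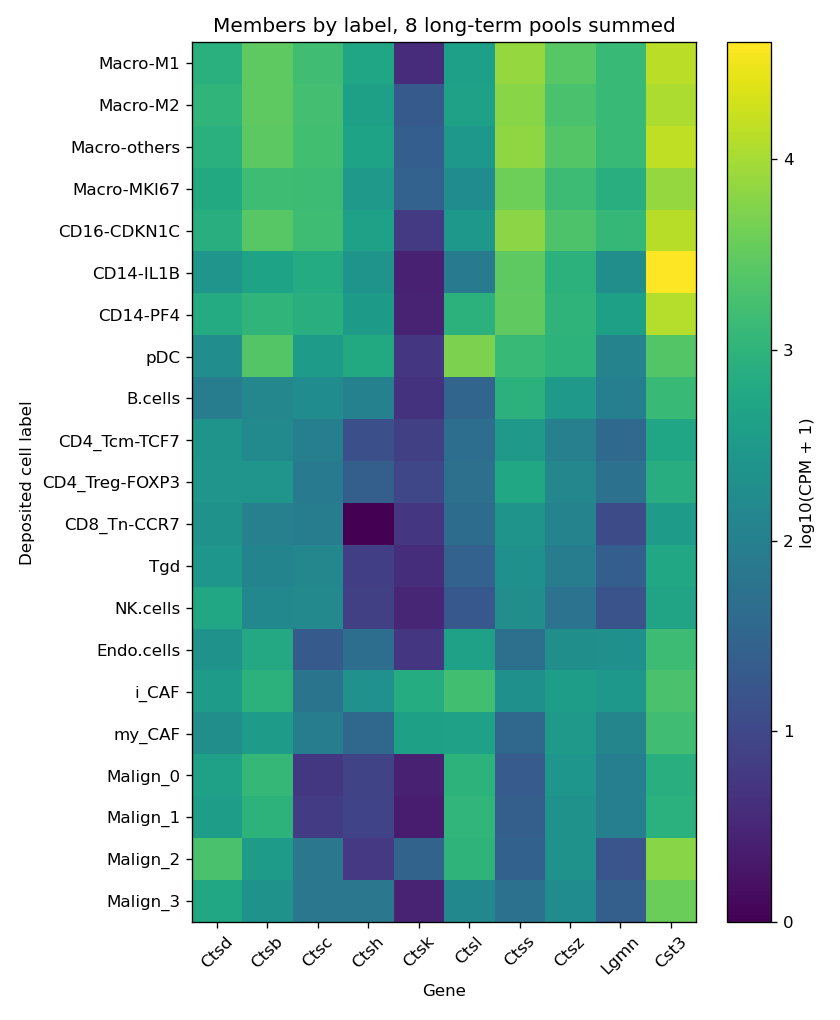
Level of each member (columns, on a log10 scale of CPM plus 1) in each deposited label (rows) with the 8 long-term pools summed. The macrophage labels at the top are bright for Ctss, Ctsb, Ctsz and Cst3, CD14-IL1B is the brightest label for Cst3, and Ctsk is bright in the CAF labels i_CAF and my_CAF alone.

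Ctsd, the aspartic protease of the lysosome, had its highest long-term level in malignant cells and not in macrophages. In Malign_2 its lowest, median and highest pool values were 1603, 1914 and 2573 CPM, above those of Macro-M2 at 974, 997 and 1236 CPM, and the pool ranges did not overlap. The next malignant label, Malign_3, stood at 566 CPM. Among the macrophage labels Ctsd ranged from 644 CPM in Macro-MKI67 to 1034 CPM in Macro-M2.

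Ctss, the cathepsin of antigen-presenting cells, separated macrophages from malignant cells the most of the 10 genes. Across the 8 long-term pools its lowest, median and highest values were 6622, 7875 and 8835 CPM in Macro-M1 and 5152, 6171 and 7231 CPM in Macro-M2. All 4 malignant labels lay at 20.4 to 53.4 CPM, so that Ctss was 239.6-fold higher in Macro-M2 than in all malignant cells together (95% interval 232 to 248). Lymphocyte labels were in between, from 188 CPM in NK.cells to 904 CPM in B.cells. The fold over malignant cells rests on low levels, of which the richest 1% of cells held 15.5% (Malign_0) to 46.4% (Malign_3). It also depends on the experiment. In short-term T127 the malignant labels were at 1.45 and 1.86 CPM and the Macro-M2 pools at 2876 to 2963 CPM.

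The low Ctss of the long-term malignant labels and i_CAF moved with a macrophage transcript. Per UMI of C1qa, a complement gene that malignant cells and fibroblasts should lack, there were 0.669 to 0.743 UMIs of Ctss in the 4 long-term malignant labels and 0.728 in i_CAF, beside 0.723 in Macro-M2. The ratio was 2.26 in CD4_Tcm-TCF7, 7.52 in B.cells and 18.1 in pDC. In long-term my_CAF, with 25 Ctss UMIs, and in short-term T127 i_CAF there was less Ctss beside C1qa than in these malignant labels. The ratios of short-term malignant labels, given below, differed from each other. The part of macrophage RNA in these levels was not tested.

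The other cysteine proteases that were highest in macrophages in the long-term pools differed in how far they reached into malignant cells. Ctsb is an endopeptidase that also removes dipeptides from protein ends. It stood at 2958 CPM in Macro-M1, 2941 CPM in Macro-M2, 2435 CPM in pDC and 238 to 1205 CPM in the malignant labels. In the short-term T127 pools Ctsb was highest in pDC (2037 CPM), with Macro-M2 pools at 1066 to 1178 CPM and Malign_0 at 880 CPM. The median cell there was at 707 CPM in Macro-M2 and 871 CPM in Malign_0. In short-term T22 the Macro-M2 pools were at 1659 to 1995 CPM and the malignant labels at 172 to 320 CPM. Ctsz, a carboxypeptidase, was at 2640.2 CPM in Macro-M1 and 174 to 261 CPM in the malignant labels. Lgmn was at 1344 CPM in Macro-others and 1296 CPM in Macro-M2, against 15.6 to 99.1 CPM in the malignant labels. Ctsc activates the serine proteases of cytotoxic and neutrophil granules. It was at 1716 CPM in Macro-M2 and 4.71 to 65.7 CPM in the malignant labels, with its lowest level among the 21 labels in Malign_0. The pool ranges of Macro-M1, Macro-M2 and Macro-others overlapped for Ctsb, Ctsc and Lgmn. For Ctsz the range of Macro-M2 (1685 to 2225 CPM) lay below both others.

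Ctsl and Ctsh, an endopeptidase and an aminopeptidase of the same family, peaked in the plasmacytoid dendritic cell label. Ctsl had lowest, median and highest pool values of 4150.2, 4993 and 6266 CPM in pDC, and no pool of another label reached that range. Next came i_CAF (1634 CPM) and the malignant labels Malign_1, Malign_2 and Malign_0 (1080.4, 986 and 943 CPM), all above the 431 CPM of Macro-M2. Ctsh was at 644 CPM in pDC and 523 CPM in Macro-M1, with overlapping pool ranges. No Ctsh UMI was counted in the 81 cells of CD8_Tn-CCR7, where the upper end of the exact interval was 8.00 CPM.

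Cst3 was highest in CD14-IL1B, the label that also carried a dendritic cell gene. Its lowest, median and highest pool values there were 33356, 41106 and 57009.5 CPM, above Macro-others, the next label, at 13868 to 16024 CPM. The same label stood at 36207 CPM in the short-term T22 pools and 36346 CPM in the short-term T127 pools. Malignant labels fell at separate levels, with Malign_2 at 6096 CPM and Malign_3 at 3817 CPM against 794 CPM in Malign_0 and 891 CPM in Malign_1.

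The balance of inhibitor to protease transcripts differed widely between labels. Cystatin C is known to block several of these proteases, and 5 of them (Ctsb, Ctsh, Ctsk, Ctsl and Ctss) were summed. Per UMI of those 5 there were 10.98 UMIs of Cst3 in CD14-IL1B (95% interval 10.8 to 11.1), 7.65 in Malign_3 (7.47 to 7.83) and 4.40 in Malign_2 (4.35 to 4.46). In Malign_3 the 10 cells richest in Cst3, of 907, held 26.9% of its UMIs, so that ratio rests partly on few cells. The ratio was 1.09 to 1.40 in the 4 labels named Macro. It lay below 1 in CD8_Tn-CCR7 at 0.905, in CD4_Treg-FOXP3 at 0.837, in i_CAF at 0.535, in Malign_1 at 0.427, in Malign_0 at 0.364 and in pDC at 0.259. For CD8_Tn-CCR7 the interval (0.727 to 1.13) included 1. The labels Malign_0 and Malign_1 held less Cst3 than RNA of the 5 proteases and Malign_2 and Malign_3 more, in every pool (0.309 to 0.534 against 3.55 to 10.6). The short-term pools gave 0.307 and 0.356 against 4.70 and 5.27. With Ctsc and Lgmn, which cystatin C also blocks, added to the proteases after the values were seen, the long-term ratios were 0.348 and 0.407 against 4.16 and 6.48, whereas that of Macro-M2 went from 1.09 to 0.842. Only Cst3 is counted as inhibitor here, and the inhibitor genes Cstb, Serpinb6a and Cst6, described below, had their highest levels in Malign_0. The ratio compares RNA counts, taken at the 3′ end of each transcript and so not scaled with its length, and not protein or activity.

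The makeup of the protease transcripts also differed with the cell type. Ctss supplied 38.8% of the UMIs of the 9 proteases in Macro-M2 and 42.8% in Macro-M1. In pDC Ctsl supplied 44.9%. Among malignant labels Ctsb supplied 40.4% in Malign_0, whereas Ctsd supplied 53.2% in Malign_2 and 42.6% in Malign_3. In i_CAF Ctsl supplied 34.3% and Ctsk 14.9%.

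Macro-M2 cells were then set against all malignant cells of the long-term pools. In Macro-M2 7 of 10 members were higher, where 16.1% of 8478 tested genes met the rule: Ctsb, Ctsc, Ctsh, Ctss, Ctsz, Lgmn and Cst3. Their ratios ran from 3.33 for Ctsb (95% interval 3.30 to 3.35) over 77.8 for Ctsc (75.0 to 80.7) to the value of Ctss given above. Ctsl was lower, at 431 against 898 CPM (26.4% of genes were lower), and Ctsd was 1.51-fold higher, short of the rule. The median member was higher by 2.74 on the log2 scale, while the median of all tested genes was -0.37.

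Other genes of the lysosome were counted in the same comparison, beside the 16.1% of all genes that were higher and the 26.4% that were lower. Of 14 hydrolases and cofactors 13 were higher in Macro-M2 than in malignant cells, as were 8 of the 9 other lysosomal proteases that could be compared, 4 of 6 membrane proteins and 4 of 6 proton pump genes. Psap, the precursor of the sphingolipid activators, peaked in Macro-M1 at 2733 CPM, the cholesterol transporter gene Npc2 in Macro-M1 at 2105 CPM, and Grn, the progranulin gene, in pDC at 1993 CPM. Napsa, an aspartic protease related to Ctsd, peaked in CD14-IL1B at 1225 CPM, and Ctsw, a cathepsin of cytotoxic lymphocytes, in NK.cells at 1152 CPM. Of 4 inhibitors compared none was higher in Macro-M2, and Cst6 and Serpinb6a were lower than in malignant cells.

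No member passed the limit between Macro-M1 and Macro-M2, where few of all genes did. In the long-term pools 0 of 10 members were at least 2-fold higher in Macro-M2 in every pool (2.79% of 6874 tested genes were) and 0 were lower (0.0727% were). Below the 2-fold limit Ctsz (1973 against 2640.2 CPM), Cst3 (11009.9 against 13809 CPM), Ctsh (424 against 523 CPM) and Ctss (6244 against 7646 CPM) were lower in Macro-M2 in 8 of 8 pools. Their log2 differences were -0.42, -0.33, -0.30 and -0.29. The share of all genes with 1 direction in every pool at any fold is not given here, so these differences cannot be called particular to the members. Ctsk stood at 19.5 CPM in Macro-M2 and 2.89 CPM in Macro-M1, higher in 7 of 8 pools, and without long-term pool 1 it made the count 1. Its values rest on few cells, as described below.

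The short-term T22 pools, where Macro-M1 was also common, gave similar counts. Again 0 of 9 members compared passed the limit in either direction (1.21% of genes were higher and 1.26% lower). Cst3 was at 9743 CPM in Macro-M2 and 11854 CPM in Macro-M1, and Ctsz at 1843 and 2098 CPM, both lower in Macro-M2 in 4 of 4 pools. Ctsc was the reverse, at 1383 CPM in Macro-M2 and 1180.5 CPM in Macro-M1, higher in 4 of 4 pools. Here too the share of all genes with such a direction at any fold is not given. The short-term T127 pools held 3 Macro-M1 cells, too few to compare.

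Between the tumor models 3 of 10 members passed the limit in Macro-M2 cells. Among short-term Macro-M2 cells (1174 of T127 and 670 of T22) Ctsl and Ctsk were higher in T127 (7.52% of 7778 tested genes met that rule) and Cst3 was lower (5.8% did). The pool ranges of 9 of 10 members did not overlap between the models, the exception being Lgmn, and neither did those of 51.8% of all tested genes. T127 and T22 were separate experiments, so the model and the experiment in which it was captured cannot be told apart.

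Ctsl was 4.48-fold higher in T127 Macro-M2 cells. Its pool values were 374, 410.3, 493 and 461 CPM in T127 and 86.8, 92.1, 100.1 and 108 CPM in T22. Every T127 pool was above every T22 pool by more than 3-fold. The summed levels were 433 and 96.5 CPM, a log2 difference of 2.15. After each cell was thinned to 3000 UMIs, 49.5% of T127 and 22.2% of T22 Macro-M2 cells had a Ctsl UMI, against 77.1% and 57.2% before thinning. In CD4_Tcm-TCF7, T cells with little Ctsl, the thinned shares were 4.65% in T127 and 3.34% in T22. Median depths were 11286 and 13221 UMIs in the Macro-M2 cells and 2804 and 6403 UMIs in the T cells.

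Cst3 and Ctss went the other way. Cst3 was at 4223, 4235, 4381 and 4519 CPM in the T127 pools and at 8766, 9396, 10826 and 10196 CPM in the T22 pools. Ctss was at 2899, 2963, 2945 and 2876 CPM in T127 and at 5072, 5125, 5591 and 5426 CPM in T22, short of the 2-fold limit with a log2 difference of -0.86. Both genes were lower in every T127 pool than in every T22 pool. Ctsb (1107 against 1792 CPM), Ctsh (271 against 427 CPM) and Ctsz (1314 against 1843 CPM) were also lower in T127, while Ctsd (785 against 479 CPM) and Ctsc (1874 against 1383 CPM) were higher, each by less than 2-fold. Ctsk was at 34.1, 39.3, 14.5 and 38.3 CPM in T127 and 0.807, 0.443, 0.513 and 2.06 CPM in T22. Without the few cells that held most of it the count of members higher in T127 was 1, as Ctsk fell below the 10 CPM needed to compare. It was then still higher in T127, at 6.94 against 0.988 CPM. Of all Macro-M2 cells, unthinned, 8.18% in T127 and 1.34% in T22 had a Ctsk UMI. Malignant cells differed in the same way. Without cells of at least 5 Ctsk UMIs, Ctsk was at 1.73 and 2.07 CPM in T127 Malign_0 and Malign_1. In T22 Malign_2 and Malign_3 it was at 0.566 and 0.572 CPM. Of all cells, 6.16% and 6.98% against 1.38% and 1.38% had a Ctsk UMI. Endo.cells (3.53 against 3.65 CPM) and i_CAF were not higher in T127, and a shift between the experiments was not tested.

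**Figure D2:**
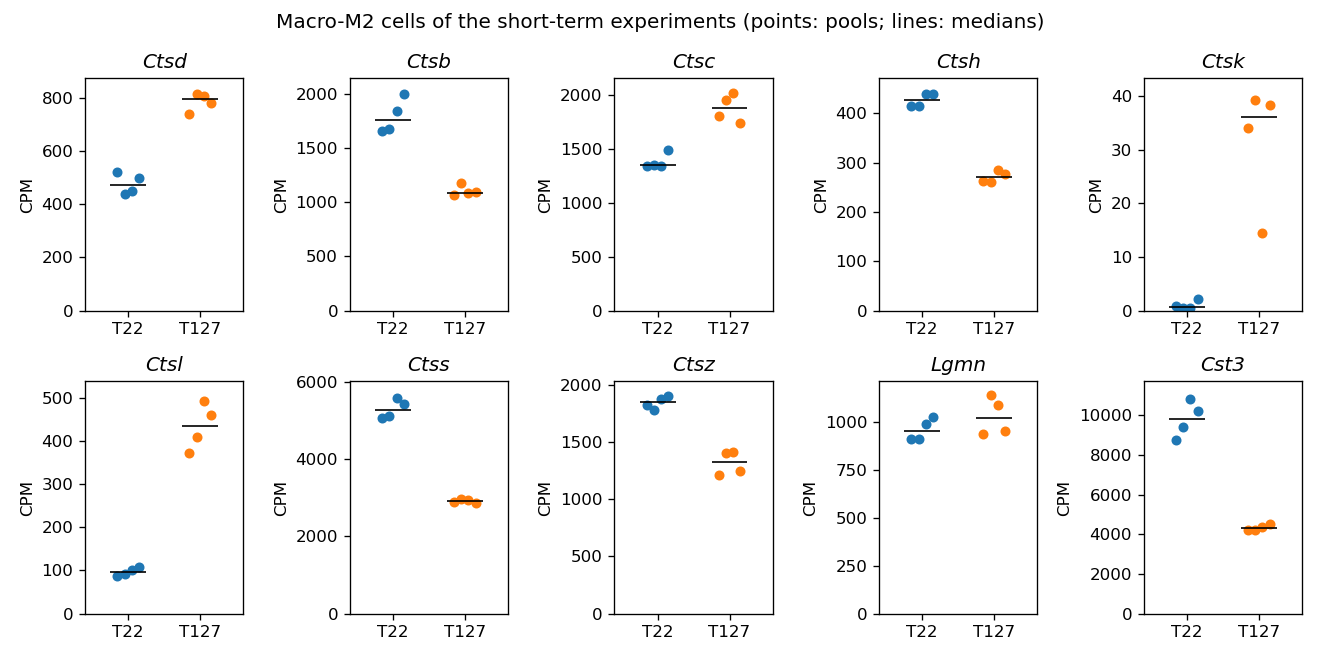
CPM of each member in Macro-M2 cells of the short-term experiments, with 1 point per pool (4 of T22, 4 of T127), lines at the medians and vertical axes starting at 0. Ctsl is at 374 to 493 CPM in T127 and 86.8 to 108 CPM in T22, Cst3 at 4223 to 4519 and 8766 to 10826 CPM, and Lgmn alone overlaps.

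The model difference was followed over the 6 monocyte and macrophage labels that both short-term experiments held with enough cells. Ctsl and Ctsk were higher in T127 in 6 of 6 labels, for Ctsl by log2 differences of 0.84 in CD14-IL1B to 2.15 in Macro-M2. For Ctsl this direction was not limited to these labels, as given below for cells outside them. Both passed the limit in Macro-others (10.2% of genes did), Macro-MKI67 (6.84%) and CD16-CDKN1C (12.3%), and neither did in CD14-IL1B (6.56%) or CD14-PF4 (3.42%). For Ctsk these levels rest on few cells, as described below. Ctss and Ctsb were lower in T127 in 5 of 6 labels, and Ctss passed the limit in Macro-others, at 2863 against 6318 CPM (5.93% of genes were lower). No member was lower past the limit in Macro-MKI67, CD16-CDKN1C, CD14-IL1B or CD14-PF4, where 6.01%, 5.67%, 2.63% and 4.31% of genes were. Cst3 was lower in T127 in 3 labels, all with pool ranges apart, and higher in the other 3, all with overlapping ranges.

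The mannose receptor gene Mrc1 moved with the difference in Macro-M2. After thinning, 876 of 1174 T127 Macro-M2 cells had a Mrc1 UMI, against 141 of 670 in T22, and its part in the differences was not tested.

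Outside the myeloid labels the counts were near the share of all genes. No member passed the limit in i_CAF (4.43% of genes were higher in T127 and 7.81% lower), Endo.cells (2.14% and 2.74%) or CD4_Tcm-TCF7 (4.62% and 5.56%). In NK.cells Lgmn was lower in T127, at 4.00 against 12.4 CPM (4.75% of genes were lower and 2.72% higher). The T127 value rests on few UMIs, in 141 cells. Ctsl stood at 1055 against 666 CPM in i_CAF and 351 against 189 CPM in Endo.cells, with T127 given first. At low levels it was also higher in T127 in CD4_Tcm-TCF7 and NK.cells. In CD4_Tcm-TCF7 Ctsl supplied 3.41% of 812 CPM of protease UMIs in T127 and 1.99% of 750 CPM in T22. In NK.cells it supplied 1.47% of 1085 CPM in T127 and 0.995% of 845 CPM in T22. Malignant cells did not share this direction, as described below. A shift of Ctsl between the experiments was not tested.

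Among other lysosomal genes, beside the 7.52% of all genes that were higher and the 5.8% that were lower, 2 of 3 inhibitors compared were higher in T127 than T22 Macro-M2 cells, Cstb (1119 against 474 CPM), the cytosolic cystatin B, and Serpinb6a (105 against 37.1 CPM), and Serpinb1a was lower (5.55 against 16.6 CPM). Of 9 other lysosomal proteases compared 1 was higher, Napsa (366 against 145 CPM), and 2 were lower, Ctse (15.7 against 36.6 CPM) and Ctsf (2.81 against 12.0 CPM), named to complete the count. Also higher were the sorting receptor Igf2r (31.3 against 3.62 CPM) and Tfec (73.0 against 12.4 CPM), a transcription factor of the MiT family. None of the 14 hydrolases and cofactors was higher. The acid lipase gene Lipa (91.8 against 291 CPM), named after its values were seen, was lower.

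Malignant cells of the models differed in most of the 10 genes. In the short-term experiments Malign_0 and Malign_1 belonged to T127 and Malign_2 and Malign_3 to T22, so in the long-term pools the first pair was summed as T127 and the second as T22. There Ctsb and Lgmn were higher in T127 (18.7% of 8333 tested genes were) and Ctsc, Ctsd, Ctsh and Cst3 were lower (18.9% were), Ctsh through Malign_3 alone. Many genes met the rule in this comparison, so the 6 members stand beside a high background. At any fold, 8 of 10 members and 66.1% of genes had pool ranges that did not overlap.

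Lgmn was at 98.2 CPM in T127 and 18.9 CPM in T22 malignant cells, a ratio of 5.20 (95% interval 4.83 to 5.61). Ctsb was at 1114 and 298 CPM, a ratio of 3.74 (3.67 to 3.81). Both were higher in 8 of 8 pools. Ctsl was higher in 8 of 8 pools as well, at 997 against 646 CPM, by less than 2-fold. That direction rests on Malign_3 (140.4 CPM), since Malign_2 was at 986 CPM, and in the short-term cells it turned, at 466 against 542 CPM with overlapping pool ranges.

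Cst3 was at 832 CPM in T127 and 5181 CPM in T22, a log2 difference of -2.64. A minority of cells carried the level of Malign_3, whose median cell was at 447 CPM, below the median cells of Malign_0 (719 CPM) and Malign_1 (751 CPM), while that of Malign_2 was at 2392 CPM. Ctsd was at 412 and 1383 CPM, Ctsh at 7.72 and 29.4 CPM, and Ctsc at 4.97 and 65.6 CPM, each lower in T127 in 8 of 8 pools. The Ctsh value of T22 rests on Malign_3 (66.0 CPM), since Malign_2 (4.89 CPM) was below Malign_0 (7.86 CPM) and Malign_1 (7.52 CPM).

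In the short-term experiments 5 of these 6 genes again passed the limit in the same direction. Ctsb was at 828 against 306 CPM and Lgmn at 78.4 against 9.63 CPM, T127 given first (21.3% of 9227 tested genes were higher). Cst3 was at 429 against 4114 CPM, Ctsd at 476 against 2371 CPM and Ctsc at 1.07 against 53.4 CPM (19.9% were lower). Ctss was lower too, at 1.64 against 16.5 CPM, with 0.461 and 0.808 Ctss UMIs per C1qa UMI in Malign_0 and Malign_2. For scale, C1qa was at 5401 CPM in T22 Macro-M2 cells and at 3577 CPM in T127 Macro-M2 cells with fewer than 5 Ctsk UMIs. Ctss pool values in Macro-M2 were 5072 to 5591 CPM in T22 and 2876 to 2963 CPM in T127. Ctsh was at 5.60 against 7.57 CPM, below the level at which genes were compared.

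**Figure D3:**
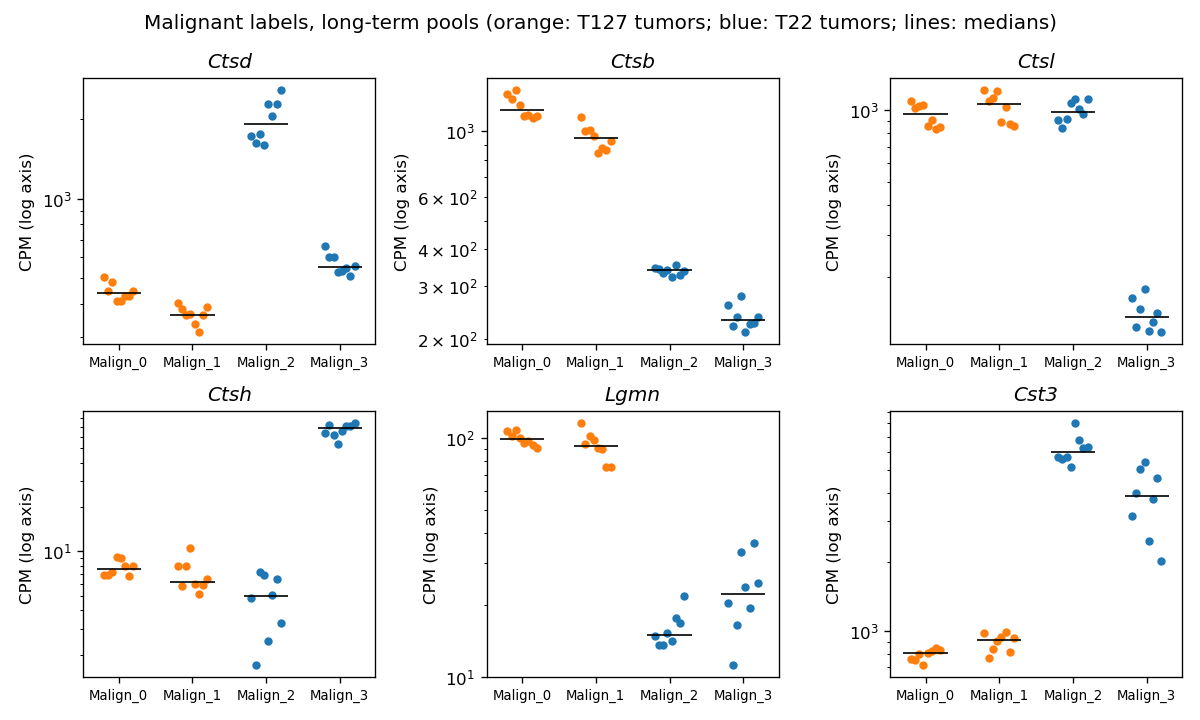
CPM (log axes) of 6 members in the 4 malignant labels of the long-term pools, with 1 point per pool, T127 labels in orange, T22 labels in blue and lines at the medians. Ctsb and Lgmn are higher in both T127 labels and Cst3 in both T22 labels, whereas Ctsd and Ctsl are higher in Malign_2 than Malign_3 and Ctsh is higher in Malign_3.

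Within T22, 2 of 10 members were higher in Malign_2 than Malign_3 (10.2% of 7850 tested genes were) and 1 was lower (8.89% were). These counts lie near the share of all genes. Malign_2, which carried the contractile gene Acta2 at 7275 CPM, had Ctsd at 1931 CPM and Ctsl at 986 CPM. Malign_3, which carried the epithelial gene Epcam at 2779.7 CPM against 922 CPM in Malign_2, had 566 and 140.4 CPM. Ctsh was the reverse, at 4.89 CPM in Malign_2 and 66.0 CPM in Malign_3, a 13.5-fold difference. All 3 genes kept their direction in 8 of 8 pools, as the rule requires.

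Within T127, Malign_0 and Malign_1 had 0 of 7 members compared past the limit, where few of all genes passed it (0.47% were higher in Malign_0 and 1.35% lower). The log2 differences were at most 0.31 in size, for Ctsb, followed by 0.27 for Ctsd.

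Cst3 was unevenly spread among single T22 malignant cells. In Malign_3 its level was 116 CPM at the 10th percentile of cells, 447 CPM at the median and 7448 CPM at the 90th percentile, a 64.0-fold span, and the pool values ran from 2018 to 5444 CPM. The short-term medians were 308 CPM in Malign_3, against 379 CPM in Malign_0 and 429.6 CPM in Malign_1. In Malign_2 the span was 23.3-fold in the long-term and 21.3-fold in the short-term cells. In Malign_0 it was 4.84-fold. Ctsd, by comparison, spanned 5.99-fold in Malign_2.

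Of the other genes of the pathway, 3 of 4 inhibitors compared were higher in long-term T127 than T22 malignant cells. They were Cstb (993 against 403 CPM), Serpinb6a (877 against 129 CPM) and Cst6 (178 against 3.15 CPM), which is named because it completes the count. All 3 had their highest level of the 21 labels in Malign_0. The membrane protein gene Cd63 was at 2779 against 795 CPM and Npc2 at 505 against 166 CPM, while Atp6v1a, a subunit of the proton pump that acidifies lysosomes, was lower at 85.3 against 219.7 CPM. Of 14 hydrolases and cofactors 5 were higher and 3 lower, beside the 18.7% and 18.9% of all genes.

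Between long-term and short-term malignant cells of the same label, 2 of 7 members compared were higher in long-term Malign_0 (2.45% of 8153 genes were) and 0 were lower (18.9% were). They were Ctsl, at 943 against 444 CPM, and Ctss, at 20.4 against 1.45 CPM. C1qa was at 30.5 CPM in the long-term and 3.14 CPM in the short-term Malign_0 cells and so moved with Ctss. Cst3 was at 794 against 409 CPM, short of the limit. In Malign_2 Ctsk alone was higher (0.907% of genes were), with most of its UMIs in 1 cell of pool 5, and 0 members were lower (10.9% were). Treatment time, the mixing of models in a pool and growth beside the other model differ together between these experiments and cannot be told apart.

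Ctsk was highest in the CAF labels in the long-term pools. Its lowest, median and highest pool values were 659.95, 706 and 771 CPM in i_CAF and 293, 397 and 721 CPM in my_CAF, while no other label exceeded 28.6 CPM. A Ctsk UMI was found in 643 of 726 i_CAF cells, and the 8 richest cells held 7.49% of the label's Ctsk UMIs. In short-term i_CAF cells Ctsk was at 796 CPM in T22 and 464 CPM in T127. In T127 the label pDC was higher, at 522 CPM, with 543 of its 549 Ctsk UMIs in 1 cell.

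Against my_CAF, 5 members were higher in i_CAF in the long-term pools (11.2% of 8498 tested genes were) and 0 were lower (6.58% were), over the 6 pools with enough cells. Ctsl was at 1634 against 445 CPM, Ctsh at 216 against 33.7 CPM, Ctsb at 921 against 358 CPM and Lgmn at 287 against 125 CPM. The fifth was Ctss, at 205 against 33.7 CPM, with C1qa at 282 against 72.7 CPM, and the 8 i_CAF cells richest in Ctss held 43.8% of its UMIs. The part of macrophage RNA in this difference was not tested.

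In short-term T22 cells Ctsb, Ctsh, Ctsl and Lgmn were again higher in i_CAF, together with Ctsd (583 against 208 CPM) and Ctsk (796 against 300.1 CPM), where 10.8% of genes were. Ctsc was lower, at 24.1 against 84.1 CPM (10.3% were), and Ctss was at 46.1 against 32.7 CPM, short of the limit. Of the other long-term genes, Npc2 (1262 against 358 CPM) and Serpinb6a (856 against 313 CPM) were higher in i_CAF, while the sorting receptors M6pr (54.1 against 202 CPM) and Sort1 (1.70 against 25.6 CPM) were lower.

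Where Ctsk was above 10 CPM outside the CAF labels, few cells held most of it. In long-term Macro-M2 19 of 3567 cells had at least 5 Ctsk UMIs and held 83% of the label's Ctsk UMIs, and in short-term T127 Macro-M2 5 of 1174 cells held 78.6%. In Macro-MKI67 of T127 7 of 198 cells held 94.8%. Over all monocyte and macrophage labels such cells were 29 of 15451 in the long-term, 19 of 2200 in the short-term T127 and 1 of 7861 in the short-term T22 experiment. Without them Ctsk was at 3.17, 6.70 and 1.10 CPM, in place of 15.1, 57.9 and 1.29 CPM. In other labels the low counts were spread thinly, with 34 Ctsk UMIs over 31 cells of long-term Macro-M1 and no more than 40 of 175 UMIs in 1 cell of long-term CD16-CDKN1C. The limit of 5 UMIs was chosen after the values were seen.

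**Figure D4:**
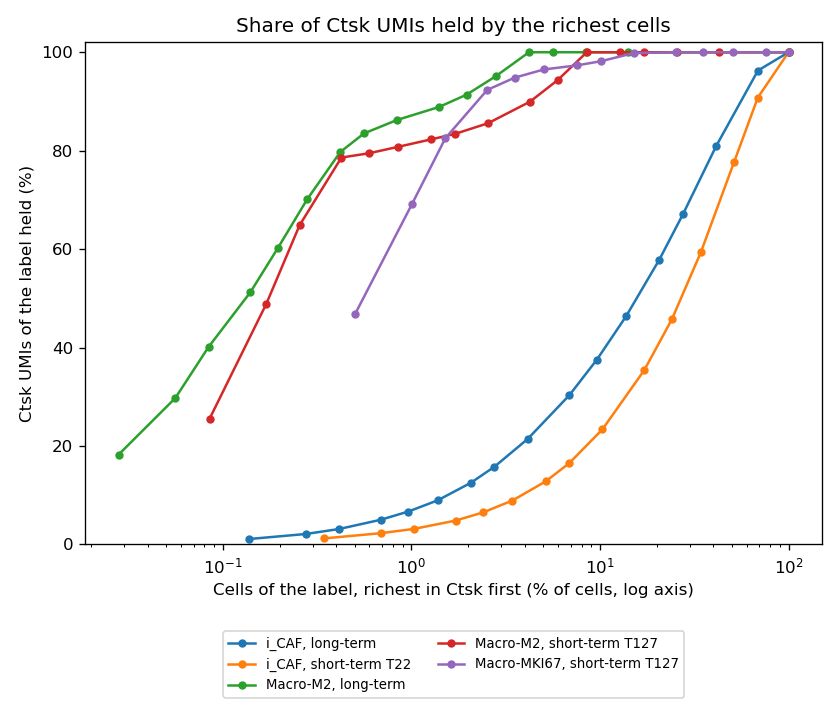
Share of a label's Ctsk UMIs (vertical axis, %) held by its cells richest in Ctsk (horizontal axis, % of cells, log scale), for i_CAF and macrophage labels. In long-term Macro-M2 the richest 36 of 3567 cells hold 87.1% of the UMIs, whereas the curves of i_CAF climb gradually.

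The cells with the most Ctsk shared several transcripts. There were 10 cells with at least 100 Ctsk UMIs outside the CAF labels, spread over 6 labels, among them 1 cell of Macro-others with 776, 1 of Malign_2 with 590 and 1 of pDC with 543 Ctsk UMIs. All 10 had UMIs of Acp5, which encodes tartrate-resistant acid phosphatase (9 to 913 UMIs), and of the proton pump subunit gene Atp6v0d2. The matrix protease gene Mmp9 was found in 9 of them and Ocstamp in 6. Calcr, the calcitonin receptor gene, had no UMI in any of the 10, the collagen gene Col1a1 none in 9 and C1qa none in 4. Over the 19 short-term T127 cells with at least 5 Ctsk UMIs, Acp5 was at 4237 CPM against 149 CPM in the remaining myeloid cells, and Mmp9 at 816 against 17.7 CPM. Dcstamp, a gene of cell fusion, was the reverse, at 3.25 against 60.6 CPM, and had UMIs in 2 of the 10 cells. In the 29 long-term cells Acp5 was at 3142 against 1134 CPM, a difference carried by the Macro-others cell with 913 of their 1413 Acp5 UMIs, and Dcstamp at 22.2 against 100.25 CPM. The Malign_2 cell also held 17 UMIs of Epcam. These cells were chosen after their values were seen, and no cell type is assigned to them.

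Within macrophages the correlation between members varied from pair to pair. Over 3510 long-term Macro-M2 cells thinned to 3000 UMIs, the median correlation of the 36 pairs of members without Ctsk was 0.163 (0.102 to 0.210 over the 8 pools). The cells share libraries and a label, and pools mix models, so the correlations are descriptions. Counting error lowers r for members with few UMIs a cell, and r was not corrected for it. Ctsh had means of 1.30 and 1.31 UMIs in cells with and without a C5ar1 UMI, and Cst3 30.2 and 37.6. The highest were Ctss with Cst3 (r = 0.70, 0.67 to 0.72 over pools) and Ctsb with Lgmn (r = 0.69, 0.66 to 0.72). Ctss with Ctsz reached 0.54 and Ctsz with Cst3 0.53.

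Cd74, the invariant chain gene, divided the members. Cst3, Ctss and Ctsz ran with Cd74 (r = 0.68, 0.60 and 0.44) and against Mrc1 (r = -0.39, -0.42 and -0.36). Ctsh and Ctsc ran with Cd74 more weakly (r = 0.26 and 0.12), and Ctsh ran against Mrc1 (r = -0.12). Ctsd and Ctsl ran against Cd74 (r = -0.35 and -0.29) and with each other (r = 0.28). Each of these correlations had the same sign in all 8 pools. Ctsb had r = 0.05 with Cd74, and for Ctsb and Lgmn the sign with Cd74 varied between pools.

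**Figure D5:**
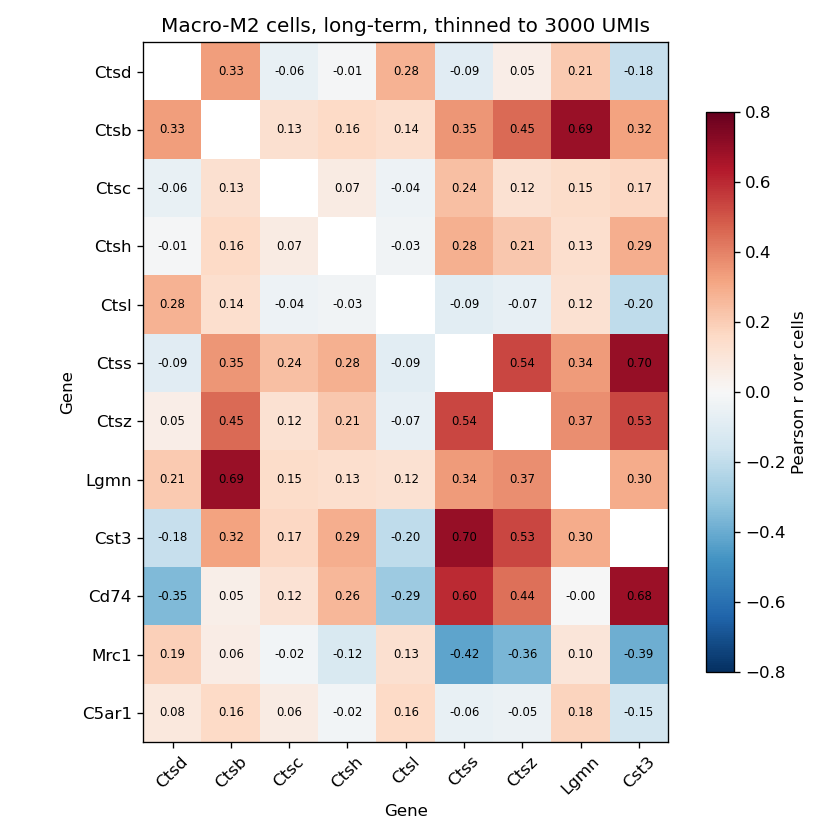
Pearson correlation over 3510 long-term Macro-M2 cells, thinned to 3000 UMIs, between 9 members and with Cd74, Mrc1 and C5ar1 (red positive, blue negative). Ctss, Ctsz and Cst3 are red with each other and with Cd74, Ctsb is red with Lgmn, and Ctsd and Ctsl are blue against Cd74.

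C5ar1, a complement receptor that the study examined on tumor macrophages, went with some members in the same cells. The 1475 cells with a C5ar1 UMI had more Ctsl (ratio 1.65, 95% interval 1.56 to 1.75), Lgmn (1.35, 1.31 to 1.40) and Ctsb (1.26, 1.23 to 1.28) than the 2035 cells without, each in 8 of 8 pools. They had less Cst3 (0.802), lower in 8 of 8 pools. In short-term T127 the ratios were 1.77 for Ctsl, 1.71 for Lgmn, 1.43 for Ctsb and 0.717 for Cst3, with the same direction in 4 of 4 pools. In short-term T22, with 204 such cells, Ctsl was again higher in 4 of 4 pools (1.64), whereas Ctsb and Lgmn were higher in 2 of 4 and Cst3 (0.894) was lower in 3 of 4.

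Splitting by Mrc1 gave values that varied with the experiment for several members. Ctsh was lower in cells with a Mrc1 UMI in every pool of all 3 experiments, with ratios of 0.825 in the long-term, 0.878 in the T22 and 0.824 in the T127 cells. Cells with a Mrc1 UMI had less Cst3 in long-term (ratio 0.516) and short-term T22 (0.487) Macro-M2 cells, in every pool, while the ratio in short-term T127 was 1.08. For Ctss the ratios were 0.587, 0.591 and 1.02 in the same order. Lgmn was 2.28-fold higher in T127 cells with Mrc1 (95% interval 2.08 to 2.51), against ratios of 1.08 in the long-term and 0.737 in the T22 cells. The long-term pools hold macrophages of both models, so a tie between genes there and a difference between models cannot be told apart.

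Genes with the most similar pattern over the 21 long-term labels were ranked by the Pearson correlation of log2(CPM + 1) among 11794 genes. Ctsb was closest to Grn (r = 0.95), then to Asah1, the acid ceramidase gene, and Psap. Lgmn was closest to Hexa (0.95), Ctss to Cd86 (0.98), a costimulatory ligand of antigen-presenting cells, and Ctsc to Creg1 (0.93), with Ctss itself next. Ctsz was closest to the nucleoside transporter gene Slc29a3 (0.96), Ctsh to B3gnt8 (0.91) and Ctsl to Evi5 (0.90). For Ctsk the nearest genes were Igsf10, Ndn and Pdgfrl (0.89 to 0.90), and for Cst3 Aph1c (0.96) and Ppt1. Ctsd had the lowest best match of the 10, Gk at 0.85, and that correlation was 0.50 over the 17 short-term T22 labels and 0.38 over the 14 short-term T127 labels. The match of Ctsk with Igsf10 was 0.93 and 0.35 there. Labels share pools and depth, so these values describe likeness alone.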

How the data were processed

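Tumors were dissociated, tagged, depleted of dead cells, pooled and captured with the Chromium Single Cell 3′ v3.1 kit. The authors processed reads with Cell Ranger 6.0.0 on GRCm38 with introns included, removed poor cells and doublets (Scrublet), clustered the cells and annotated the clusters. The deposited raw tables hold UMI counts per cell and gene, and the deposited metadata hold the cluster labels. Normalized tables were not used. The submitters' organism field reads Homo sapiens, although the mice, build and gene names are mouse.

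Here, counts of 16 pools were summed per label and experiment and divided by all UMIs of those cells (CPM). Where long-term pools shared a barcode the deepest copy was kept. Levels are given for labels with at least 50 cells and pool values for at least 10. Comparisons used a pseudocount of 1 CPM, genes at 10 CPM or more in either group and a 2-fold limit. Intervals are exact (Poisson, binomial) at 95%. For shares, correlations and splits, each cell was thinned to 3000 UMIs and shallower cells were left out. The 10 members, the pathway lists, of which the 3 genes of highest level were named, and the marker lists were chosen with earlier results of these data known. The rule that counts genes as higher or lower was checked on simulated counts. No test was possible, so none of the alternatives has a p-value. Scripts ran under Python 3.11.15 with matplotlib 3.10.9, pandas 2.3.3, scipy 1.17.1 and numpy 2.4.6. No sequence is shown, as no mouse reference was used here.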

Additional observations from a re-analysis of the deposited data

Results flagged for a closer look

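In 155 groups of pools with 4 to 10 values, 8 had a pool that stood apart from the rest by Dixon's criterion at 95%, which chance alone gives in about 1 in 20 groups. Ctsk reached 72.5 CPM in pool 2 of long-term Macro-M2, next to 27.0 CPM in the nearest pool, and 212 CPM in pool 5 of long-term Malign_2, next to 10.3 CPM. In my_CAF of the long-term pools Cst3 was at 2808 CPM in pool 7, next to 1551 CPM. In short-term T22 pool 4, Cst3 of Macro-M1 was the lowest at 11037 CPM, next to 12085 CPM, and Ctsc of Macro-M2 the highest at 1486 CPM, next to 1349 CPM. Short-term T22 pool 1 was highest for Ctss of i_CAF at 134 CPM, next to 26.1 CPM, for Ctsc of i_CAF at 42.6 CPM, next to 20.3 CPM, and for Ctsd of my_CAF at 265 CPM, next to 200 CPM.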

How the results depend on the processing

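No paired analysis was possible because the result comes from no test. Of the values recomputed under other settings, 193 for the counts, sums, shares and correlations and 578 for single genes and ratios moved by less than the limit set for them, none reversed, and 11 and 13 moved more. The count of members higher in Macro-M2 than Macro-M1 was 0, and became 1, Ctsk, with all copies as deposited, without the top 5% of cells by UMIs, without pools 1, 2 and 3 and by the 2-fold limit alone, and 0 to 1 when each long-term pool was left out (1 without pool 1). At a 1.5-fold limit the members lower in i_CAF went from 0 to 1 and those lower in T127 Macro-M2 from 1 to 4. Without cells of at least 5 Ctsk UMIs, an alternative chosen after seeing the data, the members higher in T127 Macro-M2 went from 2 to 1, and the log2 difference of Ctsk was 2.00 there (4.06 with them), 0.16 between Macro-M2 and Macro-M1 (2.40) and -0.20 between malignant cells (-2.91, or -0.75 without long-term pool 5). Shares of cells with a UMI depended on depth: 22.2% became 57.2% and 49.5% became 77.1% without thinning for Ctsl in T22 and T127, and 81.0% became 92.1% for Lgmn in long-term Macro-M2. Precision is limited by the lack of replicates, and for labels of few cells by their counts.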
